A study of Homo sapiens with 2 samples.

Results

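The 8 genes described here encode 7SK RNA and the proteins that hold or form the elongation kinase P-TEFb. They were taken by name (RN7SK, LARP7, MEPCE, HEXIM1, HEXIM2, CDK9, CCNT1 and CCNT2), with every listed transcript that GENCODE v44 places in them, which gave 8 of 59026 matched genes and 48 of 206696 listed transcripts. RN7SK was selected on its measured count in both libraries, which was known to be high when the genes were chosen, so its level is given as a description and no test was made on it. Both libraries came from 1 group of untreated HEK293 Flp-In T-Rex cells, a human embryonic kidney line with a single integration site for a tetracycline-controlled transgene, and no transgene is named in the labels. They hold total RNA after removal of rRNA, and they are numbered replicate 1 and replicate 2 without a statement that they were separate cultures. A spread between them may therefore be technical, and with a single group no comparison of conditions was possible. The estimated counts summed to 25158962 (replicate 1) and 27143860 (replicate 2).

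7SK RNA is a short nuclear RNA made by RNA polymerase III. MEPCE adds a methyl cap to its 5-prime end and LARP7 binds its 3-prime end, and together with these proteins the RNA forms a stable particle. HEXIM1 or HEXIM2 joins the particle on the 5-prime hairpin and then holds P-TEFb, the pair of the kinase CDK9 with cyclin T1 (CCNT1) or cyclin T2 (CCNT2), in an inactive state. Released P-TEFb phosphorylates NELF, DSIF and the tail of RNA polymerase II, which lets paused polymerase enter elongation.

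RN7SK (ENSG00000283293.1) occupies bases 52995621 to 52995948 of chromosome 6, plus strand, in GRCh38 (GENCODE v44), and has 1 transcript of 328 nt. Its 5-prime end is printed because the GATC repeats of the hairpin bound by HEXIM proteins lie there, and the last bases are those that LARP7 holds. The first line gives bases 1 to 110, at chr6:52995621-52995730 on the plus strand. The second gives bases 272 to 331 of a longer model of the same gene, at chr6:52995891-52995950. Both were read from GENCODE v44, as DNA letters. Capitals mark GATC in the first and the closing T run in the second.
RN7SK 5-prime end: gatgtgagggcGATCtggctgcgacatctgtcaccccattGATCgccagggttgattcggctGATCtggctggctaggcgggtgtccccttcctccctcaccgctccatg
7SK 3-prime end (longer model): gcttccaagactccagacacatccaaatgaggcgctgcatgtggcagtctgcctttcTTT

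GATC, which reads the same on both strands, stood 3 times in RN7SK, at bases 12 to 15, 41 to 44 and 63 to 66. Of the 4609 other listed transcripts of 280 to 340 nt, 10.4% held GATC at least 3 times. The longer model (ENSG00000202198.1, 331 nt, from 52995620 to 52995950) ends in 3 T, while the listed RN7SK model ends after the first of them. The longer model was not listed in the tables, so no reads were divided between both models.

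RN7SK was given 1114719 estimated counts in replicate 1, compared with 1180111 in replicate 2. This was 4.43% of all counts in replicate 1 (95% exact interval 4.42 to 4.44%) and 4.35% in replicate 2 (4.34 to 4.36%), with a mean of 4.39% ± 0.0588 (SD, n = 2). The intervals cover counting error only, and the libraries lay further apart than the intervals are wide. After the size factors of the authors, the normalised count was 1179469 in replicate 1, compared with 1094310 in replicate 2.

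Levels of different genes were compared only per length, that is as counts divided by transcript length and scaled to 1000000 per library. On this scale RN7SK stood at 129711 in replicate 1 and 122584 in replicate 2, with a mean of 126147 ± 5039 (SD, n = 2). It was the third of all matched genes in rank. The 3 genes nearest to it in level per length were also short RNAs transcribed by RNA polymerase III. RN7SL2 (151983 and 154748) and RN7SL1 (190781 and 219580), which encode the RNA of the signal recognition particle, lay above it in both libraries. RPPH1, the RNA of nuclear RNase P, lay below it at 29541 and 30515. The highest protein-coding gene, EEF1A1, reached 3826 and 3275 per length.

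Every protein-coding member lay more than 3 orders of magnitude below the RNA. Summed over the 7 protein genes, the level per length of RN7SK was 1516 times the sum in replicate 1 and 1375 times in replicate 2. The log2 ratio was 10.57 and 10.43. In bulk samples, fewer cells that express a gene and less RNA per cell cannot be told apart, and RNA levels say nothing of protein amounts.

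**Figure D1:**
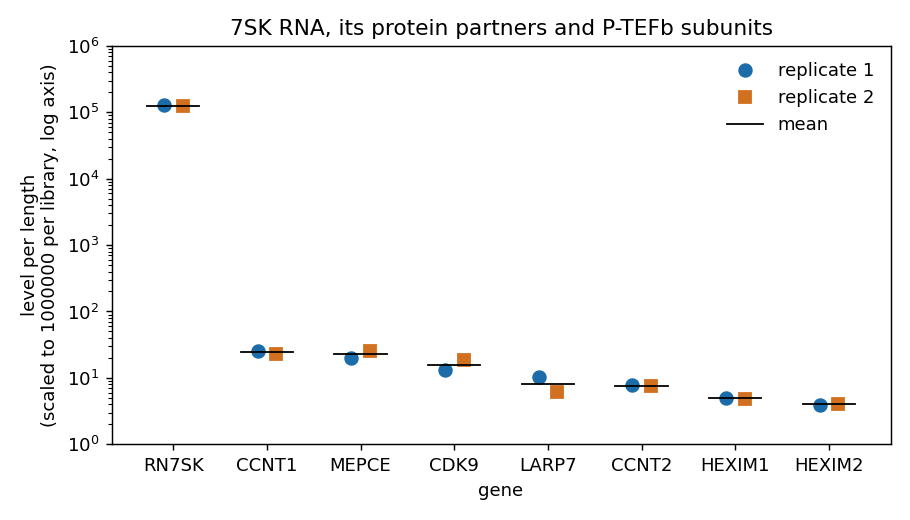
Level per length (counts divided by transcript length, scaled to 1000000 per library, log axis) of the 8 genes in replicate 1 (circles) and replicate 2 (squares), with their mean as a line. RN7SK lies at 129711 and 122584, and all protein genes lie between 3.97 and 25.4.

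Among the protein genes, the order by mean level per length was CCNT1, MEPCE, CDK9, LARP7, CCNT2, HEXIM1 and HEXIM2. An order of 2 genes was called larger than the spread when it held in each library and the means lay further apart than both SDs added up. Of the 28 pairs among the 8 genes, 25 met this. The share of pairs over all genes that meet the rule was not computed, so the count is a description only. The rule took no separate account of counting error. The pairs of RN7SK with a protein gene are among the 25 and were fixed in advance by its selection on a high count. The exceptions were CCNT1 with MEPCE, MEPCE with CDK9, and LARP7 with CCNT2, all neighbours in the order. Among genes detected in each library (1 normalised count or more), the share lying lower per length ranged from 58.9% for HEXIM2 to 87.1% for CCNT1.

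MEPCE (ENSG00000146834.15, chromosome 7, 100428322 to 100434126, plus strand) was the higher of the constitutive protein partners. Its level per length was 20.0 in replicate 1 and 25.3 in replicate 2, with a mean of 22.6 ± 3.78 (SD, n = 2). LARP7 (ENSG00000174720.18, chromosome 4, 112637077 to 112657696, plus strand) had 10.2 and 6.04, with a mean of 8.10 ± 2.91. LARP7 was thus lower than MEPCE in both libraries, with a ratio of 0.509 in replicate 1 and 0.239 in replicate 2. The size of this gap differed between the libraries because the genes differed in opposite directions, LARP7 being lower and MEPCE higher in replicate 2.

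The inhibitor paralogues lay side by side on chromosome 17 and were the lowest members. HEXIM1 (ENSG00000186834.4, 45148475 to 45152099, plus strand), a gene of a single exon of 3625 nt that encodes 359 amino acids, had levels per length of 5.03 and 4.77, with a mean of 4.90 ± 0.184 (SD, n = 2). HEXIM2 (ENSG00000168517.11, 45160700 to 45170040, plus strand), whose listed transcripts all encode 286 amino acids, had 3.97 and 4.06, with a mean of 4.02 ± 0.0670. The ratio of HEXIM1 to HEXIM2 per length was 1.27 in replicate 1 and 1.18 in replicate 2. The difference was small but larger than the spread between the libraries. Estimated counts of HEXIM1 were 478 (Poisson interval 436 to 523) in replicate 1 and 508 (465 to 554) in replicate 2. Those of HEXIM2 were 152 (129 to 178) and 172 (147 to 200). For both genes the libraries lay closer together than these intervals are wide, so the spread understates counting error. Whether the order of the paralogues exceeds counting error was not tested.

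CDK9 (ENSG00000136807.14, chromosome 9, 127785679 to 127790792, plus strand), the kinase of P-TEFb, had levels per length of 13.3 and 18.3, with a mean of 15.8 ± 3.50 (SD, n = 2). CCNT1 (ENSG00000129315.12, chromosome 12, 48688458 to 48716998, minus strand), whose product is also the cyclin used by the Tat protein of HIV, had 25.4 and 23.1, with a mean of 24.2 ± 1.63. CCNT2 (ENSG00000082258.13, chromosome 2, 134918235 to 134959342, plus strand) had 7.73 and 7.57, with a mean of 7.65 ± 0.115. CCNT1 therefore exceeded its paralogue in both libraries, with ratios of 3.28 and 3.05. The kinase was below the sum of its cyclins, at a ratio of 0.403 in replicate 1 and 0.597 in replicate 2.

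The order among the lower genes rested on how length and transcripts were treated. CCNT2 lay above HEXIM1 by 0.64 on the log2 scale of levels per length, but below it when each gene total was divided by the length of its canonical transcript (log2 ratio -0.21) and when only protein-coding transcripts were summed (-0.52). With only protein-coding transcripts LARP7 became the lowest member, at 3.51 ± 1.38 per length (SD, n = 2), beside CCNT2 at 3.52 ± 1.24, a gap smaller than either SD. The means of HEXIM1 (4.90) and HEXIM2 (4.02) then lay above both, the reverse of orders called larger than the spread. In replicate 1 alone, HEXIM2 (3.97) stayed below LARP7 (4.49) and CCNT2 (4.40). MEPCE was first and CCNT1 second under both alternatives.

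In normalised counts, which do not correct for length, LARP7 was the only member that differed over 1.5-fold between the libraries. Of 19110 genes that averaged 10 or more normalised counts, 17.4% did, 9.31% being higher and 8.06% lower in replicate 2. The count of 1 in 8 members was thus no higher than the share over all genes. LARP7 had 514 normalised counts in replicate 1, compared with 271 in replicate 2, a log2 difference of -0.92, and 573 of the 19110 genes had a lower one. The underlying estimated counts were 486 (95% Poisson interval 444 to 531) and 292 (259 to 327). These intervals do not overlap, but neither did those of RN7SK, MEPCE, CDK9 and CCNT1, so this does not set LARP7 apart. The share of all genes with intervals apart was not computed. Of the 11 LARP7 transcripts above 0 in either library, 10 were lower in replicate 2. They are parts of the same gene total, and several passed this filter only through replicate 1, so their count adds no support. The log2 difference of LARP7 was -0.82 when totals were taken without misc_RNA, ribozyme and snRNA transcripts, -0.86 with size factors by the median of ratios and -0.75 per length. LARP7 remained the only member over 1.5-fold under each. The shares of all genes were then 18.3% (12.7% higher and 5.63% lower in replicate 2), 17.8% (11.3% and 6.5%) and 19.2% (11.3% and 7.9%). No member differed over 2-fold, where 5.76% of the genes did (3.26% higher and 2.5% lower).

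The other members stayed within 1.5-fold. MEPCE had 1424 and 1754 normalised counts (log2 difference of replicate 2 to replicate 1, 0.30), and CDK9 had 689 and 789 (0.20). CCNT1 had 3656 and 2796 (-0.39) and CCNT2 had 906 and 712 (-0.35), so both cyclins were lower in replicate 2 on this scale. Per length, the differences were smaller for CCNT1 (-0.14) and CCNT2 (-0.03) and larger for CDK9 (0.46). For HEXIM1 (506 and 471), HEXIM2 (161 and 160) and RN7SK the differences of normalised counts lay between -0.11 and -0.01. These small differences carry no direction: the total without the small RNA classes raised the median of all genes by 0.11, and those of HEXIM1 and HEXIM2 changed sign with it. The all-gene median was -0.06, with -0.72 and 0.81 as the 5% and 95% points.

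**Figure D2:**
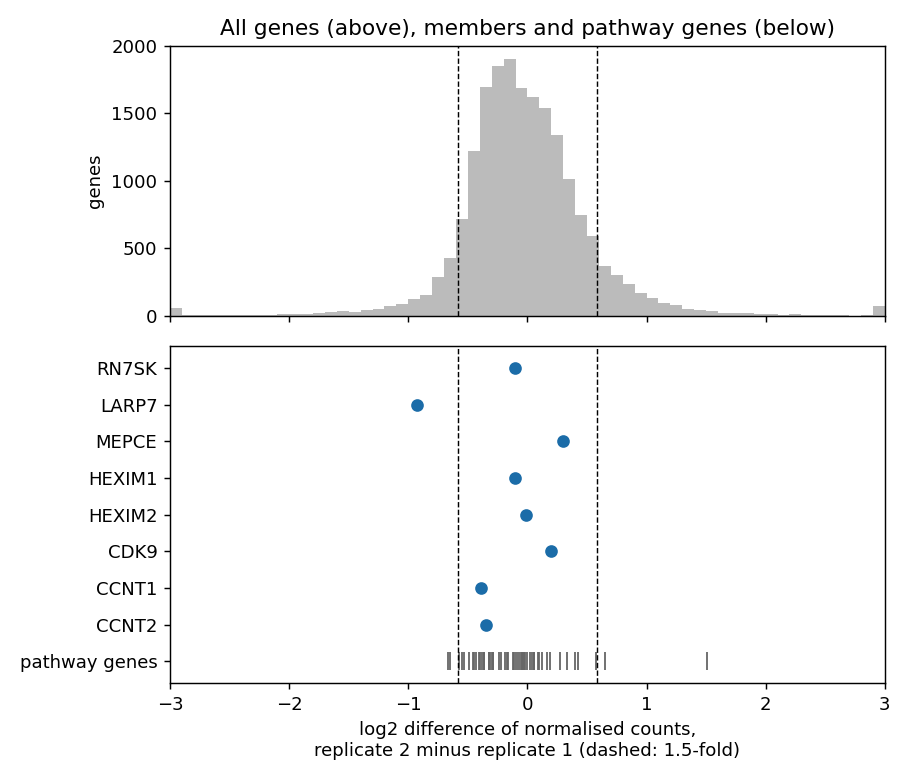
The upper panel counts genes (19110 that averaged 10 or more normalised counts, the outermost bars also holding genes beyond the axis) by log2 difference of normalised counts, replicate 2 minus replicate 1. In the lower panel the 8 members (points) and 52 pathway genes (ticks) share that axis, and only LARP7 at -0.92 lies outside the dashed 1.5-fold lines among the members.

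Transcripts of a gene differ in what they can encode, and the listed transcripts fall into 4 annotated classes. Protein-coding transcripts are annotated with a reading frame for a protein, not always the longest of the gene. Nonsense-mediated decay transcripts carry an early stop codon of the kind that marks an mRNA for destruction, retained intron transcripts keep an intron, and a last class has no defined coding sequence. Over the 7 protein genes, protein-coding transcripts took 88.9% (replicate 1) and 85.3% (replicate 2) of the counts, with a mean of 87.1% ± 2.52 (SD, n = 2), and decay transcripts held 8.81% and 11.8%.

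LARP7 had the lowest share of counts on protein-coding transcripts among the members, 50.6% in replicate 1 (95% exact interval 46.1 to 55.1%) and 46.0% in replicate 2 (40.1 to 51.8%). Decay transcripts held 43.8% and 47.4% of its counts, about as much. Among 14209 protein-coding genes that were detected in each library and have several listed transcripts, the median share on protein-coding transcripts was 91.3%, and 12.3% of these genes lay below LARP7. CCNT2 had 71.1% (68.0 to 74.2%) and 50.1% (46.4 to 53.6%) on protein-coding transcripts. In replicate 2 this interval overlapped that of LARP7. Decay transcripts held 27.3% (24.4 to 30.5%) and 48.3% (44.7 to 51.9%) of the counts of CCNT2. Its libraries were thus further apart than counting error alone gives. Divided by length, the protein-coding share was 44.2% and 41.9% for LARP7 and 56.9% and 34.9% for CCNT2, so their order then differed between the libraries. By counts, CCNT1 (92.0% and 85.2%) and CDK9 (90.6% and 86.9%) were mainly protein-coding. Divided by length, their protein-coding shares were lower, 70.3% and 55.8% for CCNT1 and 68.0% and 58.6% for CDK9. MEPCE, HEXIM1 and HEXIM2 have protein-coding listed transcripts alone.

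**Figure D3:**
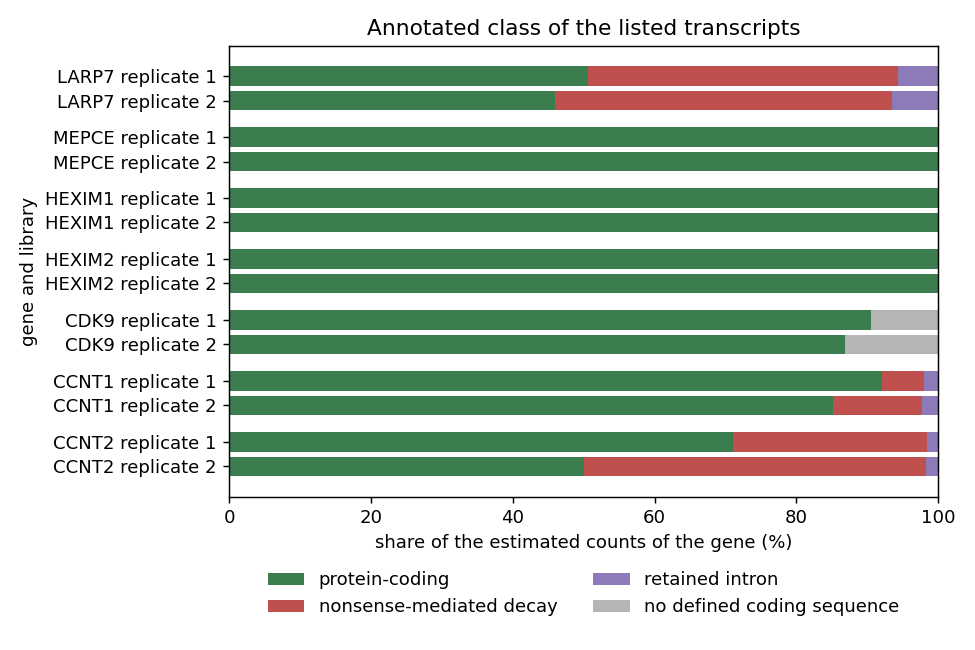
Share of the estimated counts of each protein gene (horizontal axis, %) by annotated transcript class, with a bar for each library. LARP7 has about equal protein-coding and decay shares in both libraries, whereas the decay share of CCNT2 is 27.3% in replicate 1 and 48.3% in replicate 2.

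The leading LARP7 transcript was a decay transcript. LARP7-210 (ENST00000509622.5, 2020 nt) had 199 normalised counts in replicate 1, compared with 128 in replicate 2, and took 43.1% ± 6.19 (SD, n = 2) of the gene. It leaves out 103 bases at the end of an exon, uses the same start of that exon as the canonical transcript, and reads into a TGA stop after 45 amino acids. This stop lies in exon 3 of 13, with 10 exon junctions after it. The long form of the exon (chr4:112644668-112644871, plus strand, GRCh38, GENCODE v44) is shown because this choice separates the decay from the coding reading frame. Its bases 102 to 204, in capitals, are those left out of the short form, and they open with GT, the letters at which most introns begin.
LARP7 exon, long form: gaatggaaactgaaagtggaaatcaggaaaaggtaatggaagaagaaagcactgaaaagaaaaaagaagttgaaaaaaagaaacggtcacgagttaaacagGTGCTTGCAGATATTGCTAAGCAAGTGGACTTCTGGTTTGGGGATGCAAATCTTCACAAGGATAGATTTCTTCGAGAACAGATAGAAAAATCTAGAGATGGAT

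Transcripts with the short form (LARP7-210 and LARP7-206) held 42.8% of the LARP7 counts in replicate 1 (38.4 to 47.3%) and 47.4% in replicate 2 (41.8 to 53.5%). The intervals of this share overlapped, while those of the gene total did not. None of the 1971 different words of 50 nt in LARP7-210 is absent from the other listed LARP7 transcripts, so its count rests on how the authors' program divided shared reads.

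The coding LARP7 transcripts that held most counts were LARP7-205 (582 amino acids) with 92.1 and 73.7 normalised counts, and LARP7-211 (594 amino acids, annotated as incomplete at its end) with 89.5 and 43.5. The canonical transcript LARP7-201 held 51.1 in replicate 1 and was at 0 in replicate 2, where 3 counts, the limit that a 0 allows, would be 1.03% of the gene. LARP7-209 (27.6 and 0) and LARP7-206 (21.3 and 0) showed the same pattern. LARP7-201 also has no 50-nt word of its own, so its 0 in replicate 2 rests on the same division of shared reads.

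In CCNT2 both leading decay transcripts shared an added exon. The third, CCNT2-203 (13.7 and 6.22 normalised counts), has no exon with the same ends, though it too is annotated with 173 amino acids. CCNT2-204 held 188 and 144 normalised counts and CCNT2-208 held 45.6 and 194, and both contain an exon of 87 nt (chr2:134945889-134945975, plus strand, GRCh38, GENCODE v44) that the canonical transcript lacks. The annotated reading frame ends in this exon, at the TGA in capitals (its bases 27 to 29), after 173 amino acids instead of 730.
CCNT2 added exon: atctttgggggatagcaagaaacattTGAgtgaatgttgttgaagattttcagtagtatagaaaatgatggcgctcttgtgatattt

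In CCNT2-204, 4 exon junctions follow the stop, and in CCNT2-208, 5 do. Transcripts with exactly this exon held 25.8% of the CCNT2 counts in replicate 1 (22.9 to 28.9%) and 47.4% in replicate 2 (43.8 to 51.0%), with a mean of 36.6% ± 15.3 (SD, n = 2). CCNT2-208 held 16.1% ± 15.7 and CCNT2-204 20.5% ± 0.43, so the libraries lay apart on the former. CCNT2-208 has only 3 of 2314 words of 50 nt that no other listed CCNT2 transcript holds. The main coding transcripts, CCNT2-201 (730 amino acids, 286 and 203 normalised counts) and CCNT2-202 (663 amino acids, 338 and 140), were both lower in replicate 2. Neither has a word of 50 nt that is absent from the other listed CCNT2 transcripts, so their counts rest on the division of shared reads.

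CCNT1 was mostly the canonical transcript. CCNT1-201 (726 amino acids) held 3059 and 2263 normalised counts, or 82.3% ± 1.96 (SD, n = 2) of the gene. CCNT1-202 (219 and 350) and CCNT1-205 (304 and 119) lack an exon of 164 nt (chromosome 12, 48695999 to 48696162). CCNT1-202 has no word of 50 nt of its own, so its count also rests on that division. Both end after 184 amino acids, with 1 exon junction 58 nt after the stop. The annotation nevertheless calls CCNT1-202 a decay transcript and CCNT1-205 protein-coding, so the class shares of CCNT1 depend on that label. Transcripts without the exon held 14.3% of CCNT1 counts in replicate 1 (13.2 to 15.5%) and 16.8% in replicate 2 (15.5 to 18.2%), although the members of the pair differed in opposite directions. Divided by length, their mean share was 26.0%.

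MEPCE counts were divided between a long and a short protein. MEPCE-201 (689 amino acids) held 864 and 990 normalised counts, 58.6% ± 3.01 (SD, n = 2) of the gene, and MEPCE-202 (220 amino acids) held 559 and 760, 41.3% ± 2.86. The short form does not contain the start of the long first exon (chromosome 7, 100429831 to 100431689) in which the canonical frame opens. All transcripts that lack it held 39.3% (36.7 to 42.0%) and 43.6% (41.3 to 45.8%). Each of the leading transcripts has words of 50 nt of its own, 783 of 2773 for MEPCE-201 and 182 of 2212 for MEPCE-202. The exon that MEPCE-202 adds (100428817 to 100429040) overlaps the span of ZCWPW1 on the opposite strand (100400826 to 100428992). Whether reads of that gene entered its count was not tested.

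CDK9-201 (372 amino acids) held 624 and 670 normalised counts, 87.7% ± 3.98 (SD, n = 2) of its gene, followed by CDK9-204 without a defined coding sequence (36.3 and 59.1). CDK9-202 was at 0 in replicate 1 and at 15.2 in replicate 2. In HEXIM2, HEXIM2-201 led with 107 and 83.2 normalised counts (59.1% ± 9.98), before HEXIM2-203 (24.4 and 35.8), HEXIM2-208 (9.28 and 16.8) and HEXIM2-207 (14.3 and 10.2). All of these are annotated with a protein of 286 amino acids.

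**Figure D4:**
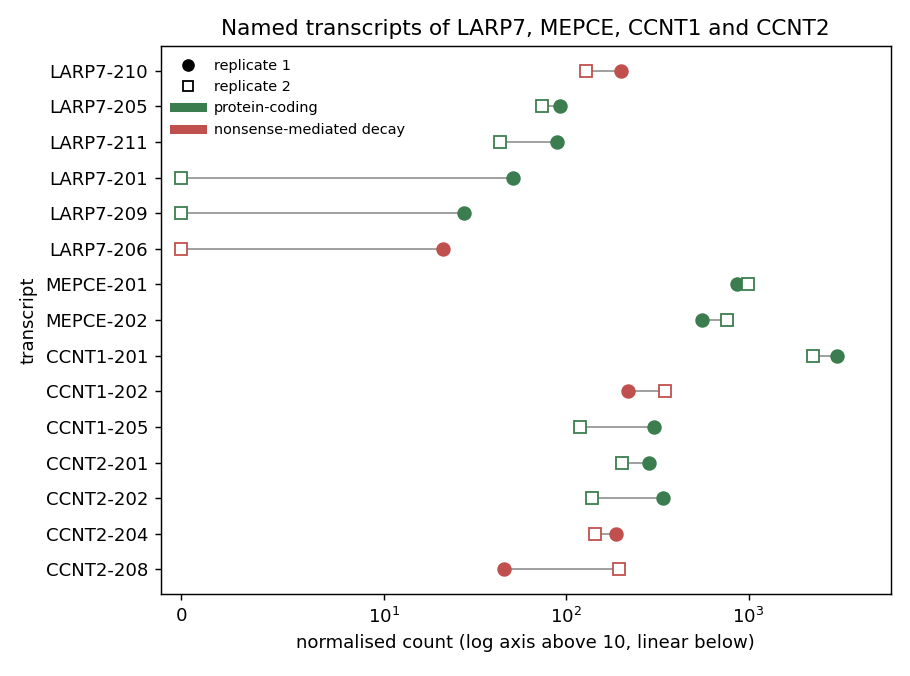
Normalised counts of named transcripts of LARP7, MEPCE, CCNT1 and CCNT2 (log axis above 10, linear below) in replicate 1 (filled circles) and replicate 2 (open squares), coloured by annotated class. LARP7-201, LARP7-209 and LARP7-206 are at 0 in replicate 2, and CCNT2-208 has 45.6 and 194.

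Several members overlap other genes, and whether counting used strand was not given in the sources used here, so that reads of an overlap can belong to either gene. The listed partners were low. HEXIM2-AS1, opposite to both HEXIM1 and HEXIM2, held 8.90 and 5.56 normalised counts, and CCNT2-AS1, opposite to CCNT2, held 22.2 and 16.9. MIR302CHG, opposite to LARP7 and host of the miR-302 cluster of pluripotent cells, held 5.78 and 2.75. ZCWPW1, which shares 203 exonic bases with MEPCE on the opposite strand, was the highest at 165 and 117.

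The human genome holds many copies of 7SK RNA, most of them called RN7SKP pseudogenes, and 299 were listed. They were low beside RN7SK: 187 were at 0 in both libraries and 69 were above 0 in both. Summed, they had 911 estimated counts in replicate 1, compared with 1076 in replicate 2, which was 0.0864% ± 0.00665 (SD, n = 2) of the counts on RN7SK and its copies. The copies match a median of 61.9% of the RN7SK bases, and 2 match at least 90%. Of the 279 words of 50 nt in RN7SK, 64 occur in no listed copy.

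The 3 copies with the highest counts held 28.7% of that sum. RN7SKP9 (chromosome 13) held 122 and 131 normalised counts, RN7SKP255 (chromosome 14) held 78.3 and 90.3, and RN7SKP48 (chromosome 4) held 67.5 and 72.4. The 5-prime ends of the first pair are printed to show how close they are to RN7SK over the bases HEXIM proteins bind (GENCODE v44, GRCh38, capitals mark GATC). RN7SKP9 is given at chr13:99205708-99205817 and RN7SKP255 at chr14:89712511-89712620, both on the plus strand.
RN7SKP9 5-prime end: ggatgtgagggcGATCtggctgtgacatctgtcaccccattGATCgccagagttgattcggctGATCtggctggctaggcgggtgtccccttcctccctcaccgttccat
RN7SKP255 5-prime end: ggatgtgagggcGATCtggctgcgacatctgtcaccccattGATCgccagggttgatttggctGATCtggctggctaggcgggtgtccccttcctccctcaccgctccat

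Against the 110 bases of RN7SK shown above, counted from 1 at its 5-prime end, RN7SKP9 carries C22T, G50A and C104T, and RN7SKP255 carries C58T, where the first letter is the RN7SK base. None of these touches a GATC. RN7SKP255 shares 62 of the 50-nt words of RN7SK, so its counts can be reads that fit RN7SK as well.

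**Figure D5:**
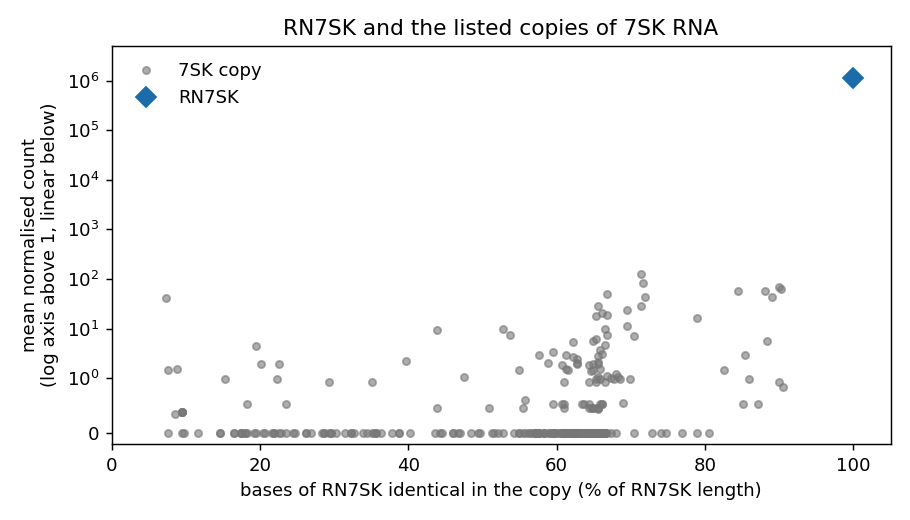
Mean normalised count (log axis above 1, linear below) of RN7SK (diamond) and the 299 listed 7SK copies (points) against the share of RN7SK bases identical in the copy (%). The copies lie at or below the 126 of RN7SKP9, while RN7SK lies at 1136889.

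The wider pathway was read from 7 lists with 52 genes, all above the count minimum. Over 1.5-fold, 2 were higher and 2 lower in replicate 2, where the shares over all genes were 9.31% and 8.06%, and the median log2 difference of the lists was -0.11 beside -0.06 for all genes. Their median level per length was 20.7, between the means of CDK9 and MEPCE.

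Among the 6 pausing factors, the targets of P-TEFb, the highest level per length was that of NELFE (51.0) and the lowest that of NELFA (3.99). NELFA was also the pathway gene furthest apart between the libraries, with 77.0 normalised counts in replicate 1 and 218.7 in replicate 2 (log2 difference 1.51). The 9 genes of the super elongation complex, in which active P-TEFb works, ranged from EAF2 (2.11) to AFF4 (23.7) per length and had none over 1.5-fold. Of the 7 recruiters and release factors, TRIM28 had the highest level per length (462).

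The 7 genes for RNA polymerase II, its other tail kinases and their cyclins ranged from CCNK (10.6) to CCNH (40.8) per length, and CDK7, the kinase of TFIIH, had 649 and 414 normalised counts (-0.65). The 4 hnRNP genes, whose products bind 7SK RNA once P-TEFb has left, ranged from SYNCRIP (43.7) to HNRNPA1 (390), all above every protein member. Of the La family with the MEPCE paralogue, 7 genes, LARP1 was the highest (88.1) and BCDIN3D the lowest (3.59). The 12 genes that transcribe 7SK RNA ranged from POLR3B (2.88) to SNAPC3 (24.0) per length, beside a product at 126147. Of these, BDP1, a subunit of TFIIIB, had 2028 and 1281 normalised counts (-0.66).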

How the data were processed

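Per the labels, total RNA of HEK293 Flp-In T-Rex cells was DNase treated, depleted of rRNA and made into TruSeq libraries. The submitters' processing notes name FastQC, STAR 2.7.0d, RSEM 1.3.3 and R 3.6.3, and the study aligned its sequencing reads to GRCh38. No strand setting was found for the counting. The authors deposited 2 values per transcript: an RSEM estimated count, in which reads that fit several transcripts are divided between them, and a normalised signal, which equals that count over a size factor (0.945 in replicate 1 and 1.08 in replicate 2). The tables of METTL8 transcripts were not used.

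Transcript identifiers, less their version, were looked up in GENCODE v44, and the matched ones covered 96.9% and 96.8% of the counts. Levels per length are estimated counts divided by GENCODE transcript length, without effective length correction, scaled to 1000000 per library and summed per gene. Transcript classes, exons and reading frames are those of GENCODE v44, whose models can differ from those counted where the version changed. Copies were aligned to RN7SK with Biopython 1.88, and tables were handled with pandas 2.3.3. Shares have exact (Clopper-Pearson) intervals and counts Poisson intervals, both covering counting error only. No p-value was computed, since there was 1 group. The identity of the cell line was not checked.

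The members, the pathway lists and the rules for naming genes were chosen with earlier results of these data known. Named are all members, their transcripts that averaged 5% or more of the gene or were at 0 in 1 library and at 10 or more normalised counts in the other, the highest and lowest gene of each pathway list, pathway genes over 1.5-fold apart, the 3 genes nearest to RN7SK per length and the 3 copies with the highest counts. The exon choices were picked after transcript values were seen. The values of 1 pathway gene are not reported here.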

Additional observations from a re-analysis of the deposited data

How the results depend on the processing

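No paired analysis was possible because the libraries form 1 group. A value with either library left out always lies within the spread between the libraries, so it counts below as staying by construction. Among the values recomputed under alternatives, 90 stayed within the spread between the libraries or on their side of the threshold, 27 moved by more than that spread, 4 fell below 1.5-fold and 2 reversed an order that had been larger than the spread. Sign changes of values within the spread, or of orders smaller than it, are not among those 2: CCNT1 to MEPCE, at 0.11, became -0.25 with canonical lengths and -0.57 with protein-coding transcripts, LARP7 to CCNT2, at 0.03, became -0.02 with protein-coding transcripts, and the library differences of HEXIM1 and HEXIM2 changed sign as described above. The RN7SK share of 4.39% became 5.03% without the other misc_RNA, ribozyme and snRNA transcripts in the total and 4.53% over matched transcripts. Its level per length of 126147 became 70421 with an effective length (an assumed fragment of 200 nt gives transcripts shorter than that a length of 1) and 141122 with canonical lengths. The log2 ratio of RN7SK to the protein members, 10.50, became 11.63 with effective lengths, 10.84 with canonical lengths, 10.95 with protein-coding transcripts and 7.26 with normalised counts not divided by length. With protein-coding transcripts, LARP7 to MEPCE went from -1.52 to -2.74 and CCNT1 to CCNT2 from 1.66 to 2.15. CCNT1 to CCNT2 became 2.02 with canonical lengths. Effective lengths gave 0.16 in place of 0.29 for HEXIM1 to HEXIM2. Not divided by length, HEXIM1 to HEXIM2 became 1.61, CCNT1 to CCNT2 1.99, and CDK9 to its cyclins -2.44 in place of -1.03. The protein-coding share of 87.1% became 73.1% per length. CCNT2 to HEXIM1, at 0.64, reversed to -0.21 with canonical lengths and -0.52 with protein-coding transcripts. These are the 2 reversals counted above, but not every order called larger than the spread was among the values counted. With protein-coding transcripts, the means of LARP7 (3.51) and CCNT2 (3.52) also fell below HEXIM2 (4.02), and LARP7 fell below HEXIM1 (4.90). At 2-fold, 0 members were counted in place of 1. The cause of these shifts beyond the settings themselves was not tested.

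Below 1.5-fold under another scaling came CDK7 (-0.54 per length and without the small RNA classes) and BDP1 (-0.56 without those classes). That total also moved the genes over 1.5-fold to 12.7% higher and 5.63% lower in replicate 2, beside 9.31% and 8.06%. Leaving out either library gave the value of the other, with the same direction for all 5 ratios: LARP7 to MEPCE ranged from -2.07 to -0.98 and CDK9 to its cyclins from -1.31 to -0.74. The per-length exon shares and the orders of neighbouring genes under other lengths were added after seeing the data.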
